A study of Mus musculus with 22 samples.

Results

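Fc receptors bind the constant region of antibodies, and several of them signal through an immunoreceptor tyrosine-based activation motif (ITAM) in a shared adaptor chain. This account covers 10 such genes, chosen by name out of the 21995 genes of the expression tables: the receptor genes Fcgr1, Fcgr2b, Fcgr3, Fcgr4 and Fcgrt, the adaptor gene Fcer1g, and the signalling genes Syk, Plcg2, Btk and Inpp5d. All 10 were found in the tables. RNA was sequenced from whole spinal cords of 22 mice, with 1 library per mouse, to follow changes with age and in a mouse model of amyotrophic lateral sclerosis (ALS). For aging, 8 young males at 3–4 months (Young) and 8 old males at 18–24 months (Old) were compared, all of them wild-type C57BL/6 mice. For ALS, 3 symptomatic SOD1 G93A mice (G93a) were compared with 3 wild-type controls (Control) at 5–6 months. SOD1 G93A mice carry a high-copy transgene for human SOD1 with the G93A mutation on a C57BL/6 background and lose motor neurons. Each ALS group held 2 females and 1 male, and the sex of a given library was not a term of the test. Each experiment was made with its own library kit and was tested separately.

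When antibody clusters an activating Fc gamma receptor, kinases of the Src family phosphorylate the ITAM of the Fc receptor gamma chain, the product of Fcer1g. The kinase Syk then docks there, and Btk and phospholipase C gamma 2 (Plcg2) carry the signal on to calcium release, phagocytosis and cytokine output. The receptor encoded by Fcgr2b carries an inhibitory motif in its place and recruits SHIP1, the lipid phosphatase encoded by Inpp5d, which removes the phospholipid that Btk and Plcg2 bind. In spinal cord these genes are known mainly from microglia, the resident macrophages. Fcgrt encodes the neonatal Fc receptor, a relative of MHC class I that pairs with beta-2 microglobulin (B2m), recycles IgG and albumin, and has no ITAM.

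The genes of the receptors Fcgr2b, Fcgr3 and Fcgr4 lie close together on mouse chromosome 1 with Fcer1g. On GRCm38 (the build also called mm10), Fcgr2b spans chr1:170958617-170976547, Fcgr4 chr1:171018920-171029761, Fcgr3 chr1:171051174-171064935 and Fcer1g chr1:171229572-171234365. All but Fcgr4 are on the minus strand. These 3 receptors are paralogs, so that reads from shared sequence had to be divided between them when the counts were estimated. Fcgr2b and Fcgrt each overlap an antisense gene that the count table does not list. Inpp5d lies elsewhere on the same chromosome at chr1:87620312-87720507, Fcgr1 at chr3:96282909-96293969, Fcgrt at chr7:45092990-45103851, Plcg2 at chr8:117498291-117635142, Syk at chr13:52583173-52648792 and Btk at chrX:134542336-134583570.

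Because most of these genes moved together, their promoters were searched for 1 short motif, the letters GAGGAA or, on the other strand, TTCCTC. These letters are the core of sites bound by PU.1, the myeloid transcription factor encoded by Spi1. In the 250 bases before the start site in RefSeq (GRCm38.p6), the motif was found for 5 of the 10 genes, which were Fcgr1, Fcgr3, Fcgr4, Inpp5d and 1 of the start sites of Syk. Of all 32851 promoters of that length, 23.3% held it. That share is per promoter, while the count of genes takes a match at any start site of a gene. The share and the count are therefore not measured alike. The 150 bases before 1 start site are shown for Fcgr1, Fcgr3, Fcgr4 and Inpp5d, and Syk is not shown. They are printed 5′ to 3′ on the strand of the gene, with the matching letters in capitals. Whether a match lies within an exon of another transcript was not tested.
Fcgr1, chr3:96293970-96294119, minus strand: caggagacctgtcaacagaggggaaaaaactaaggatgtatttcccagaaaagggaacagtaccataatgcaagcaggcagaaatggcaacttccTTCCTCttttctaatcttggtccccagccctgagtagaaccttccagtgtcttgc
Fcgr3, chr1:171059404-171059553, minus strand: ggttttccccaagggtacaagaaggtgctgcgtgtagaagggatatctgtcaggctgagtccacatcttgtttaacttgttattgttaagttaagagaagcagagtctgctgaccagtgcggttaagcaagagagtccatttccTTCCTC
Fcgr4, chr1:171018776-171018925, plus strand: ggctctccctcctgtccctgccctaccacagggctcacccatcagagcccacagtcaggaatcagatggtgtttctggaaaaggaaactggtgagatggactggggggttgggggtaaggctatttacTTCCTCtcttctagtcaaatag
Inpp5d, chr1:87620162-87620311, plus strand: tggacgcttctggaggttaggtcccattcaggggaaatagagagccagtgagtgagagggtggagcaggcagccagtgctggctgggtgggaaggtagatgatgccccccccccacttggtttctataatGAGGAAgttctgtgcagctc

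In these 4 stretches the match begins 55, 6, 22 and 20 bases before the start site of Fcgr1, Fcgr3, Fcgr4 and Inpp5d, respectively. The start site used for Fcgr3 lies inside the span of the gene given above. At another start site of Fcgr3 the same match begins 15 bases before. A match describes these letters in this window and says nothing of binding. Spi1 itself was higher in Old than in Young mice by 1.29 ± 0.16 on the log2 scale (SE, edgeR adjusted p = 2.72e-06) and higher in G93a than in Control mice by 2.71 ± 0.26 (edgeR adjusted p = 0.000241).

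The aging libraries held between 5078092 and 9358055 counts and the ALS libraries between 9675610 and 13219797. No library duplicated another. Libraries are named by letters, which carry no meaning beyond the name. Old F stood apart from the other old libraries, with the lowest CPM (counts scaled to library size, here by TMM) of its group for 8 of the 10 genes. Its summed CPM over 12 microglia and macrophage markers was 542, where the other old libraries lay between 659 and 773. The number of genes called higher with age was 7 with all libraries and 8 without Old F.

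With age, 7 of the 9 genes that could be tested rose past both thresholds, a log2 fold change beyond 1 and an edgeR adjusted p under 0.05, and none fell. Over all 13647 genes tested, 2.18% were called higher in the same way. Their median on the log2 scale was 1.16, where the median of every gene tested was -0.0027. The receptor chains and the adaptor led, with Fcgr2b at 6.61-fold, Fcer1g at 3.4-fold, Fcgr3 at 2.68-fold and Fcgr1 at 2.43-fold. Syk passed the threshold on p and not that on the fold change, Fcgrt passed neither, and Fcgr4 was too low to be tested. In bulk tissue, more cells of a type and more RNA per cell cannot be told apart.

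**Figure D1:**
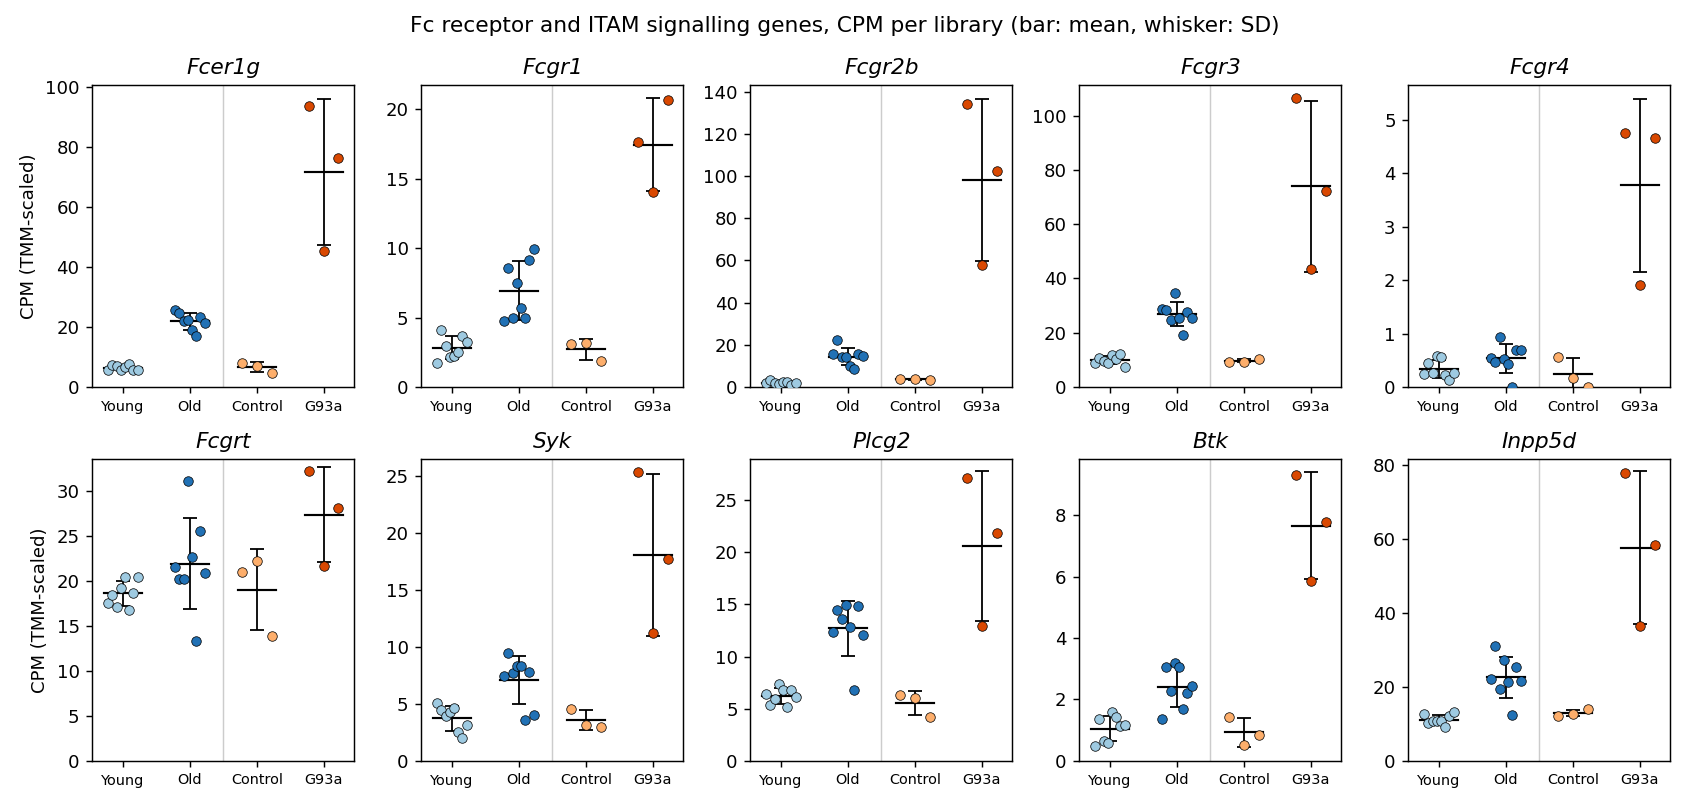
CPM of the 10 genes (vertical axes, TMM-scaled within each experiment) in each library, with Young and Old mice to the left of the grey line and Control and G93a mice to the right. Points are single mice, horizontal bars are means and whiskers are SD. All old mice lie above all young mice for Fcer1g, Fcgr1, Fcgr2b and Fcgr3, and all G93a mice lie above all controls for each gene but Fcgrt.

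Fcer1g, the adaptor that activating Fc receptors need for surface expression and signalling, ranged from 5.63 to 7.57 CPM in young mice with a median of 6.16, and from 17.0 to 25.7 CPM in old mice with a median of 22.2. The groups were far from overlapping, and the coefficient of variation was 13% in each of them. The log2 fold change was 1.76 ± 0.098 (SE, n = 8 and 8, edgeR adjusted p = 9.39e-12). By its p-value Fcer1g ranked 8 among the 13647 genes tested.

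The inhibitory receptor gene Fcgr2b had the lowest, median and highest values of 1.13, 2.03 and 3.30 CPM in young mice and 8.64, 14.6 and 22.2 CPM in old mice. The lowest old mouse, Old F, still exceeded the highest young mouse. The log2 fold change was 2.73 ± 0.19 (edgeR adjusted p = 3.29e-10), and Fcgr2b ranked 23 by fold change among all genes tested.

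Fcgr3, a low-affinity activating receptor for IgG complexes, lay between 7.45 and 12 CPM in young mice (median 10.1) and between 19.1 and 34.8 CPM in old mice (median 26.7). Fcgr1, which encodes the high-affinity IgG receptor CD64, lay between 1.73 and 4.10 CPM in young mice (median 2.75) and between 4.76 and 9.97 CPM in old mice (median 6.58). Neither gene's groups overlapped, although the gap for Fcgr1 was narrow. The log2 fold changes were 1.42 ± 0.11 for Fcgr3 (edgeR adjusted p = 1.07e-09) and 1.28 ± 0.20 for Fcgr1 (edgeR adjusted p = 3.80e-05). Fcgr1 lost the call with limma on log2(FPKM + 1), at a log2 fold change of 0.78. It also did not pass glmTreat against a log2 fold change of 1.

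Fcgr4, the remaining activating IgG receptor gene, was barely detected. Its counts were 1 to 5 in young libraries and 0 to 7 in old libraries, where 3 counts correspond to between 0.321 and 0.591 CPM. A difference of this gene with age was not detectable at this depth, and in the fits that kept it the log2 fold change was between 0.65 and 0.68 with adjusted p-values of at least 0.323.

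Fcgrt, the recycling receptor, ranged from 16.8 to 20.5 CPM in young mice (median 18.5) and from 13.3 to 31.0 CPM in old mice (median 21.1). The old group enclosed the whole range of the young group. The log2 fold change of 0.25 ± 0.11 did not pass the test (edgeR adjusted p = 0.106). Without Old F it was 0.32 with an edgeR adjusted p of 0.00767, still far below the threshold on the fold change. Its partner B2m rose by 1.51 ± 0.10 on the log2 scale (edgeR adjusted p = 1.55e-10).

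Among the signalling genes, Plcg2 lay between 5.16 and 7.37 CPM in young mice (median 6.29) and between 6.79 and 14.9 CPM in old mice (median 13.2). Inpp5d lay between 9.22 and 13.1 CPM in young mice (median 10.7) and between 12.3 and 31.0 CPM in old mice (median 21.8). In both cases 7 of the 8 old mice exceeded every young mouse, and Old F was the exception. The log2 fold changes were 1.04 ± 0.13 for Plcg2 (edgeR adjusted p = 2.19e-06) and 1.03 ± 0.13 for Inpp5d (edgeR adjusted p = 3.04e-06). These values stood just past the threshold of 1. With limma they were 0.66 and 0.77 on log2(FPKM + 1) and 0.95 and 0.93 on log2(FPKM + 0.1), under the threshold, and neither gene passed glmTreat against a log2 fold change of 1. The value of Inpp5d fell to 0.94 without Old B, to 0.98 without Old D and to 0.99 without Young F.

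Btk, the Tec family kinase that acts on phospholipase C gamma, ranged from 0.494 to 1.58 CPM in young mice (median 1.15) and from 1.36 to 3.20 CPM in old mice (median 2.37), on 3 to 30 counts per library. Of the old mice, 7 of 8 exceeded every young mouse, and the log2 fold change was 1.16 ± 0.25 (edgeR adjusted p = 0.00120). With limma on log2(FPKM + 1) it was 0.51, and neither that fit nor glmTreat kept the call of Btk. Syk, the kinase that docks on the phosphorylated ITAM, ranged from 1.98 to 5.07 CPM in young mice (median 4.08) and from 3.55 to 9.50 CPM in old mice (median 7.72). Old F and Old H fell within the range of the young mice for Syk. Its log2 fold change of 0.93 ± 0.20 passed the test (edgeR adjusted p = 0.00137) and stayed under the threshold of 1, which it crossed without Old F, at 1.03.

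In G93a mice 9 of the 10 genes rose past both thresholds and none fell, where 8.5% of the 14386 genes tested in this comparison were called higher. Their median on the log2 scale was 2.81, where the median of every gene tested was 0.0031. Every G93a mouse exceeded every control for these 9 genes. Such a complete separation was found for 25.7% of all genes in this comparison and for 3.66% of all genes in the aging comparison, where 4 of the 10 genes showed it.

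Fcgr2b measured 3.80, 3.79 and 3.38 CPM in Control A, B and C and 134, 58.0 and 102 CPM in G93a A, B and C. The lowest G93a mouse was thus far above any control. The log2 fold change of 4.75 ± 0.32 (edgeR adjusted p = 8.14e-05), 26.9-fold, was the largest of the 10 genes in this comparison, as that of Fcgr2b was among the 9 tested with age. Leaving out 1 library at a time, it stayed between 4.46 and 5.02.

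Fcer1g measured 7.97, 7.16 and 4.76 CPM in the controls and 93.5, 45.2 and 76.2 CPM in the G93a mice, a log2 fold change of 3.45 ± 0.29 (edgeR adjusted p = 0.000169). Fcgr3 measured 9.39, 9.26 and 10.3 CPM in the controls and 106, 43.4 and 72.3 CPM in the G93a mice, a log2 fold change of 2.94 ± 0.30 (edgeR adjusted p = 0.000293). Fcgr1 measured 3.13, 3.20 and 1.84 CPM in the controls and 17.6, 14.0 and 20.7 CPM in the G93a mice, a log2 fold change of 2.69 ± 0.25 (edgeR adjusted p = 0.000220). G93a B was the lowest G93a mouse for each of these genes, and for all 10 genes.

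Fcgr4, which was near the limit of detection in the aging libraries, had 6, 2 and 0 counts in the controls and 56, 19 and 52 counts in the G93a mice. In CPM these were 0.569, 0.168 and 0 against 4.75, 1.91 and 4.66. The groups did not overlap, and the log2 fold change was 3.99 ± 0.71 (edgeR adjusted p = 0.00419). With so few counts in the controls the size of the change was poorly fixed, and leaving out 1 library at a time moved it between 3.36 and 5.37.

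Of the signalling genes, Btk measured 1.42, 0.505 and 0.845 CPM in the controls and 9.32, 5.84 and 7.79 CPM in the G93a mice, a log2 fold change of 3.06 ± 0.36 (edgeR adjusted p = 0.000590). Syk measured 4.56, 3.11 and 3.00 CPM in the controls and 25.3, 11.2 and 17.7 CPM in the G93a mice, a log2 fold change of 2.36 ± 0.31 (edgeR adjusted p = 0.00112). No G93a mouse came near the range of the controls for either kinase. Inpp5d measured 12.2, 12.7 and 13.9 CPM in the controls and 77.8, 36.5 and 58.4 CPM in the G93a mice, a log2 fold change of 2.15 ± 0.25 (edgeR adjusted p = 0.000534). Plcg2 measured 6.36, 6.06 and 4.23 CPM in the controls and 27.1, 12.9 and 21.8 CPM in the G93a mice, a log2 fold change of 1.90 ± 0.28 (edgeR adjusted p = 0.00184). Plcg2 had the smallest fold change of the 9 genes that rose.

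Fcgrt was again the exception. It measured 21, 22.2 and 13.8 CPM in the controls and 32.1, 21.7 and 28.1 CPM in the G93a mice, so that the groups overlapped. The log2 fold change of 0.53 ± 0.20 did not pass the test (edgeR adjusted p = 0.0727), and without G93a B it was 0.67 with an edgeR adjusted p of 0.0124. In the fits of all libraries the adjusted p was 0.0339 with edgeR and 0.0353 with DESeq2, and with limma it was 0.0339 on log2(FPKM + 1) and 0.0346 on log2(FPKM + 0.1), with log2 fold changes between 0.50 and 0.71 that stayed under the threshold of 1. B2m rose by 2.11 ± 0.18 on the log2 scale (edgeR adjusted p = 0.000182).

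**Figure D2:**
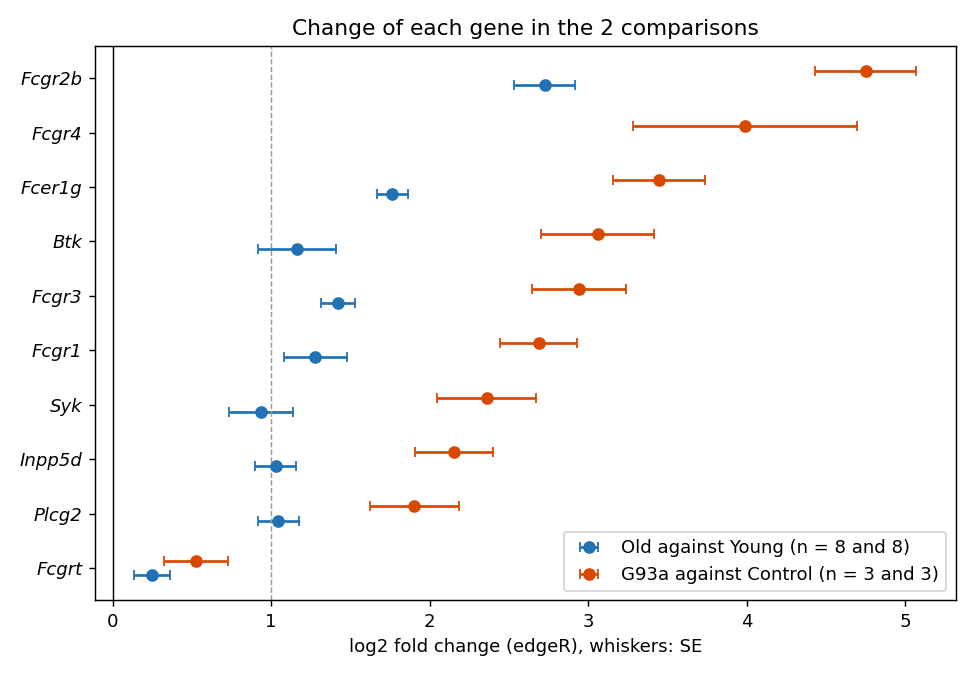
Log2 fold change of each gene (horizontal axis) in Old against Young mice (blue) and in G93a against Control mice (orange), with whiskers for the SE and a dashed line at the threshold of 1. Fcgr2b has the largest value in both comparisons, at 2.73 and 4.75, and Fcgrt the smallest, at 0.25 and 0.53. Fcgr4 has no value for age because it was too low to be tested.

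The changes in G93a mice were larger than those with age. In one edgeR fit of all 22 libraries, the difference between the log2 changes passed the test for 9 of the 10 genes, always with the larger change in G93a mice, where 11.6% of 14502 genes did so. The difference was 1.99 ± 0.39 for Fcgr2b (edgeR adjusted p = 0.000477), 1.65 ± 0.25 for Fcer1g (edgeR adjusted p = 4.07e-05), 1.49 ± 0.27 for Fcgr3 (edgeR adjusted p = 0.000223) and 1.38 ± 0.35 for Fcgr1 (edgeR adjusted p = 0.00447). Fcgr4 differed by 3.27 ± 0.82 (edgeR adjusted p = 0.00413), on few counts in 3 of the 4 groups. Of the signalling genes, Btk differed by 1.86 ± 0.45 (edgeR adjusted p = 0.00328), Syk by 1.4 ± 0.38 (edgeR adjusted p = 0.00831), Inpp5d by 1.10 ± 0.27 (edgeR adjusted p = 0.00364) and Plcg2 by 0.83 ± 0.28 (edgeR adjusted p = 0.0291). The last was the least secure, since its adjusted p rose to 0.158 without G93a A and also missed the threshold without Control C or without G93a C, while that of Syk rose to 0.0551 without G93a A. Fcgrt differed by 0.26 ± 0.23 and did not pass (edgeR adjusted p = 0.44). The 2 experiments shared no library, and they differed in kit, sex and depth as well as in the contrast, which cannot be told apart.

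Levels of different genes were set side by side in FPKM, which scales fragments by transcript length. In young mice Fcgrt was the highest of the 10 genes with a median of 12 FPKM (9.73 to 14.3), followed by Fcer1g with 9.15 FPKM (8.42 to 10.8) and Fcgr3 with 7.22 FPKM (5.45 to 8.90). The ranges of neighbours in this order overlapped. Inpp5d followed with 2.79 FPKM, and Plcg2, Fcgr1, Fcgr2b, Syk, Btk and Fcgr4 had medians between 1.37 and 0.2 FPKM. In old mice Fcer1g stood first with 33.2 FPKM (22.5 to 37.7), then Fcgr3 with 19.3 FPKM (12.4 to 26.1) and Fcgrt with 14.1 FPKM (8.90 to 21.8). Fcgr2b had moved from a median of 1.07 FPKM in young mice to 7.82 FPKM (4.93 to 12), and its range overlapped that of Inpp5d (2.73 to 8.05 FPKM).

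Control mice had the same leading genes as young mice, Fcgrt with a median of 12.4 FPKM (8.09 to 13.2), Fcer1g with 10.4 FPKM (6.94 to 11.9) and Fcgr3 with 6.71 FPKM (6.59 to 7.46). In G93a mice the median of Fcer1g was 116 FPKM (69.7 to 139), that of Fcgr3 was 53.6 FPKM (32.2 to 76.9) and that of Fcgr2b was 47.7 FPKM (27.7 to 57.9). The ranges of Fcgr3 and Fcgr2b overlapped widely in G93a mice. Fcgrt came next with 17.9 FPKM (15 to 21.7), ahead of Inpp5d with 13.7 FPKM and Fcgr1 with 9.82 FPKM. Plcg2, Fcgr4, Syk and Btk lay between 4.95 and 3.01 FPKM.

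Because Fcgr2b opposes the activating receptors, the balance was followed within each library as the log2 ratio of an activating receptor's CPM to that of Fcgr2b. CPM is not scaled by length, so only the shift between groups carries information, and it is given as a description. The Fcgr3 to Fcgr2b ratio ranged from 1.68 to 3.41 in young mice and from 0.35 to 1.36 in old mice, a shift of the median by -1.33 without overlap. In the ALS libraries it ranged from 1.29 to 1.61 in controls and from -0.50 to -0.33 in G93a mice, a shift of -1.73 without overlap. The Fcgr1 to Fcgr2b ratio ranged from -0.20 to 1.70 in young mice and from -1.72 to -0.58 in old mice, a shift of -1.25. In controls it ranged from -0.87 to -0.24 and in G93a mice from -2.93 to -2.05, a shift of -2.03. Relative to both activating receptors, Fcgr2b was thus higher in old and in G93a libraries. Computed from FPKM, the shifts were -1.23 and -1.75 for Fcgr3 and -1.53 and -1.91 for Fcgr1, and the old and young ranges of the Fcgr1 ratio then overlapped. For Fcgr4 the shifts were -1.55 with age and -1.21 in G93a mice, on few counts and leaving out 1 old and 1 control library in which it had none.

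**Figure D3:**
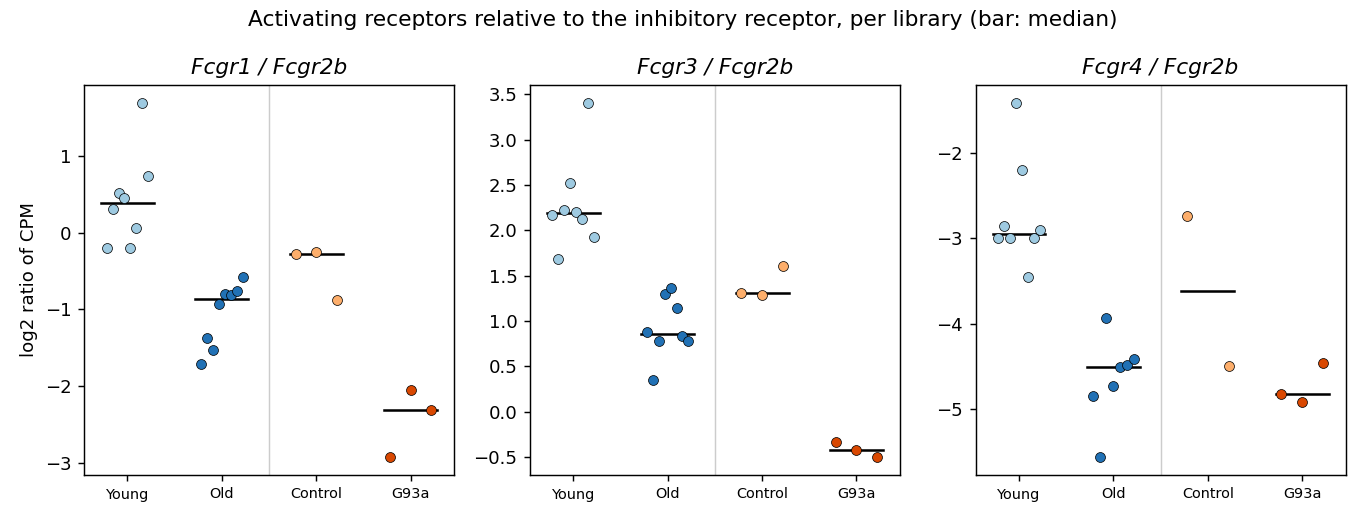
Log2 ratio of the CPM of the activating receptor genes Fcgr1, Fcgr3 and Fcgr4 to that of the inhibitory receptor gene Fcgr2b (vertical axes) in each library, with bars at the group medians. The median of the Fcgr3 ratio is lower by 1.33 in old than in young mice and by 1.73 in G93a than in control mice, and the libraries with no Fcgr4 count are left out.

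The genes were also set against Csf1r, a receptor gene that marks microglia and macrophages and that rose itself, by 0.69 ± 0.07 on the log2 scale with age (edgeR adjusted p = 1.02e-07) and by 1.79 ± 0.17 in G93a mice (edgeR adjusted p = 0.000229). Relative to Csf1r, the median log2 ratio shifted by 2.21 with age and by 3.10 in G93a mice for Fcgr2b, by 1.13 and 1.61 for Fcer1g, and by 0.68 and 1.06 for Fcgr3. None of these 3 genes' groups overlapped in either comparison. For Plcg2 the shifts were 0.38 and 0.14 and for Inpp5d 0.36 and 0.29, with overlap between the groups in both comparisons. Syk shifted by 0.11 with overlap with age and by 0.60 without overlap in G93a mice, and Btk by 0.58 with overlap and by 1.34 without. Fcgr1 shifted by 0.52 with overlap and by 0.89 without. Fcgrt moved the other way, by -0.39 with age and by -1.22 in G93a mice, without overlap in either comparison, although its old and young ranges overlapped when FPKM was used. By the same measure Tyrobp shifted by 1.61 and 2.09 without overlap, and Spi1 by 0.65 with overlap and 0.95 without. These shifts depend on the choice of Csf1r, since some markers of the same cells rose more than it did and others changed less. Aif1 rose more, by 1.56 ± 0.19 with age (edgeR adjusted p = 1.91e-06) and by 2.75 ± 0.24 in G93a mice (edgeR adjusted p = 0.000176). P2ry12 changed less, by 0.05 ± 0.12 with age and by 0.13 ± 0.10 in G93a mice, and did not pass the test in either comparison.

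**Figure D4:**
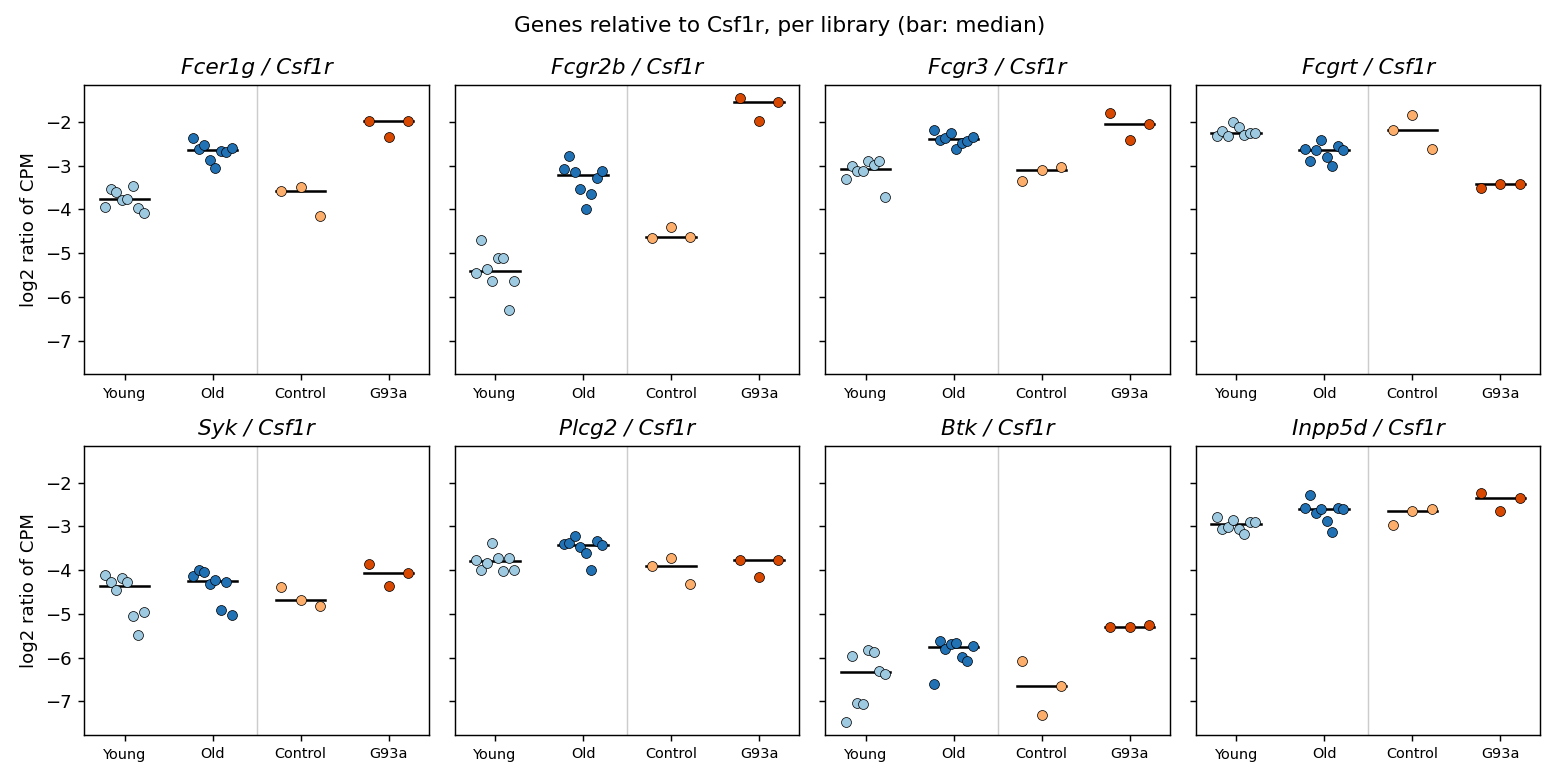
Log2 ratio of the CPM of 8 of the genes to that of Csf1r (vertical axes, shared) in each library, with bars at the group medians. The ratio of Fcgr2b is higher by 2.21 in old and by 3.10 in G93a mice than in their reference groups, those of Plcg2 and Inpp5d overlap between groups, and that of Fcgrt is lower by 0.39 and 1.22.

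Markers of the cell types that can carry these genes were measured in the same fits. Of the 12 microglia and macrophage markers, 5 rose past both thresholds with age and 8 in G93a mice. Their summed CPM was 379 to 422 in young, 542 to 773 in old, 396 to 474 in control and 1136 to 1699 in G93a mice. P2ry12, Sall1 and Siglech, which mark microglia at rest, did not pass the test in either comparison, with log2 fold changes of 0.05, -0.01 and 0.16 with age and 0.13, 0.16 and 0.43 in G93a mice. The part of microglial number in the changes of the Fc receptor genes was not tested.

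Markers of other immune cells were low. The 5 markers of border macrophages summed to 1.88 to 3.21 CPM in old and 1.55 to 4.15 CPM in young mice. Their sums were 3.73 to 5.85 CPM in G93a and 1.61 to 2.94 CPM in control mice, without overlap. Of the 5 markers, 2 could be tested, in the ALS comparison alone. Mrc1 rose past both thresholds (1.42 ± 0.48 on the log2 scale, edgeR adjusted p = 0.0478). Cd163 passed neither (0.77 ± 0.34, edgeR adjusted p = 0.114). The 8 monocyte and neutrophil markers summed to 0.874 to 4.62 CPM in old and 1.36 to 2.47 CPM in young mice, and to 2.32 to 3.40 CPM in G93a and 0.307 to 2.27 CPM in control mice, without overlap in the latter comparison. The T and NK cell markers did not overlap in either comparison, with sums of 0.729 to 2.56 CPM in old against 0.194 to 0.707 CPM in young mice and of 1.31 to 1.79 CPM in G93a against 0.154 to 0.854 CPM in control mice. None of the monocyte, neutrophil, T or NK cell markers had enough counts to be tested. The B and plasma cell markers overlapped in both comparisons and reached at most 4.13 CPM. Mast cell markers summed to 0 CPM in every ALS library and to at most 0.816 CPM in an aging library. Fcer1a and Ms4a2, which form the mast cell IgE receptor together with the product of Fcer1g, had 3 counts or fewer in every library. Endothelial markers, of interest for Fcgrt, summed to 193 to 225 CPM in old and 210 to 245 CPM in young mice, with overlap. Their sums were 190 to 196.6 CPM in G93a and 196.75 to 222 CPM in control mice, narrowly without overlap. On the adjusted p alone, 3 of these 7 markers were lower with age and 1 in G93a mice, and none passed both thresholds. Over all genes tested, 1761 of 13647 were lower with age by that rule and 2236 of 14386 in G93a mice. In G93a mice astrocyte markers summed to 8242 to 14296 CPM against 2604 to 3361 CPM in controls, and neuron markers to 2326 to 4034 CPM against 5909 to 6186 CPM. Motor neuron markers summed to 91.4 to 105 CPM in G93a and 181 to 208 CPM in control mice, and 2 of the 5 fell past both thresholds, while their sums overlapped between old (160 to 205 CPM) and young mice (164 to 207 CPM). Oligodendrocyte, red blood cell and skeletal muscle markers overlapped between the groups of both comparisons, and no gene of these lists passed both thresholds. The part of these shifts in tissue composition was not tested.

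Other genes of the pathway were taken from lists. Tyrobp, the ITAM adaptor of microglial receptors such as Trem2, rose by 2.27 ± 0.17 on the log2 scale with age (edgeR adjusted p = 9.18e-10) and by 3.87 ± 0.32 in G93a mice (edgeR adjusted p = 0.00016), and Trem2 rose by 2.37 ± 0.14 and 3.77 ± 0.25. Of the list of 17 ITAM adaptors and partner receptors in the table, 3 could be tested with age, of which Tyrobp and Trem2 rose past both thresholds, and 8 in the ALS comparison, of which 5 rose. Cd300lb, an activating receptor that pairs with ITAM adaptors, had no count in any control and 42 to 95 counts in the G93a libraries, and 0 to 1 counts in young against 2 to 19 in old libraries. Of the other Fc receptors and Fc receptor-like genes, 1 of 2 tested rose with age and 2 of 3 in G93a mice. Fcrls, a microglial Fc receptor-like gene, rose by 1.52 ± 0.22 with age (edgeR adjusted p = 1.33e-05) and by 4.08 ± 0.26 in G93a mice (edgeR adjusted p = 8.14e-05), and Fcrl1 rose by 3.70 ± 0.73 in G93a mice (edgeR adjusted p = 0.00622) on 0 to 4 counts in the controls.

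Of the list of Src and Tec family kinases, which act beside and after the ITAM, 3 of 7 tested rose past both thresholds with age. In G93a mice 4 of 9 did, and none was lower past both in either comparison. The list also held Zap70 of the Syk family, tested in the ALS comparison alone (0.35 ± 0.48, edgeR adjusted p = 0.613). Lyn rose by 1.02 ± 0.11 and 2.27 ± 0.21 on the log2 scale and Fgr by 2.11 ± 0.26 and 3.68 ± 0.52. Tec rose by 1.95 ± 0.34 in G93a mice and, at 0.96 ± 0.15, stayed under the threshold on the fold change with age. Fyn, a kinase of many neural cells, passed the threshold on p alone, at -0.13 ± 0.05 with age (edgeR adjusted p = 0.0343) and at 0.32 ± 0.09 in G93a mice (edgeR adjusted p = 0.0288). The median of the list was 0.96 with age and 0.35 in G93a mice.

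Of the scaffolds and effectors downstream of Syk, 11 of 26 tested rose past both thresholds with age and 17 of 27 in G93a mice, and none was lower past both, with median log2 fold changes of 0.79 and 2.01. On the adjusted p alone, 4 genes were lower with age (Vav3, Pik3cb, Prkcb and Pik3r1) and the first 3 of them were lower in G93a mice, with log2 fold changes between -0.51 and -0.11. By the same rule 1761 of all 13647 genes tested were lower with age and 2236 of 14386 in G93a mice. Cybb, the catalytic subunit of the phagocyte NADPH oxidase, was at 0.131 to 0.97 CPM in young and 7.40 to 21.1 CPM in old mice, and at 0.307 to 0.759 CPM in control and 35.9 to 66.2 CPM in G93a mice. Its log2 fold changes were 5.05 ± 0.29 (edgeR adjusted p = 1.48e-11) and 6.56 ± 0.34 (edgeR adjusted p = 6.83e-05). Blnk, the adaptor that brings Btk and Plcg2 together, rose by 1.94 ± 0.17 and 3.26 ± 0.25, and Nckap1l, a regulator of the actin cytoskeleton in blood and microglial cells, by 1.32 ± 0.12 and 2.92 ± 0.22. Among paralogs, the log2 fold changes with age and in G93a mice were -0.14 and -0.11 for Plcg1, the widely expressed relative of Plcg2, and -0.03 and 0.08 for Vav2, against 1.29 and 2.70 for Vav1. Vav3 was lower in both comparisons on the adjusted p alone, by -0.33 ± 0.10 (edgeR adjusted p = 0.0164) and -0.51 ± 0.16 (edgeR adjusted p = 0.0372).

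Of the genes of the inhibitory side other than Fcgr2b and Inpp5d, 9 of 17 tested rose past both thresholds with age and 11 of 20 in G93a mice, and none fell. The medians were 1.07 and 1.52. Ptpn6, which encodes the phosphatase SHP-1, rose by 1.88 ± 0.16 (edgeR adjusted p = 4.62e-09) and 3.01 ± 0.25 (edgeR adjusted p = 0.000169). Cd33, a sialic acid receptor placed in this list, rose by 1.19 ± 0.10 and 2.0 ± 0.25. Cd22, a receptor of the same family better known from B cells, went from 0 to 0.519 CPM in young to 2.78 to 7.36 CPM in old mice and from 0 to 0.421 CPM in control to 11.7 to 24.7 CPM in G93a mice. Inppl1, the widely expressed relative of Inpp5d, had log2 fold changes of -0.01 with age and 0.74 in G93a mice. Both the activating and the inhibitory lists thus held genes that rose, and no gene of either list fell past the thresholds.

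Among the 8 old mice, the other 9 genes were compared with Fcer1g over libraries, on log2 CPM with two-sided exact permutation tests. On this scale Fcgr2b had the highest correlation, with a Pearson r of 0.899 (exact permutation p = 0.00392, adjusted over the 9 relations 0.0353) and a Spearman rho of 0.881 (exact permutation p = 0.00724, adjusted 0.0652). Without Old F and Old E, the libraries farthest from the median of Fcer1g, r was 0.543, so that the relation rested on those libraries. The adjusted p-values of r for the other 8 genes were at least 0.093 by the exact permutation test. On log2(FPKM + 1) no relation passed, and the order changed, with r of 0.845 for Plcg2, 0.841 for Fcgr3 and 0.814 for Fcgr2b (exact permutation p adjusted 0.106, 0.0731 and 0.0731).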

How the data were processed

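The authors aligned reads with STAR and estimated gene abundance with RSEM on the Ensembl annotation of mm10. Samtools 1.3 is also named. Whether counting used the strand of reads is not given in the sources used here. The authors deposited expected counts per gene, which were whole numbers as deposited, and log2 values of FPKM with a pseudocount of 1. Column names gave each library's group and not its replicate number. Symbols and positions are from GENCODE M21, which held 21919 of the 21995 genes.

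Each comparison was filtered with filterByExpr (minimum count 10, minimum total 15), scaled by TMM and tested with the quasi-likelihood test of edgeR 4.0.16 in R 4.3.3, and p-values were adjusted by Benjamini-Hochberg across every gene tested. This test served as the main one on counts in place of the DESeq2 test of the study, whose thresholds (log2 fold change beyond 1, adjusted p under 0.05) were kept. SE was derived from the log2 fold change and its F statistic. P-values measure the spread between mice. The difference between comparisons was an interaction term over all 22 libraries. Alternatives used DESeq2 1.42.0 and limma 3.58.1, other scaling and filters, and each library of a comparison left out. For the difference between comparisons, only G93a and Control libraries were left out, and no Young or Old library was. The edgeR steps were tested on simulated data. Floors of 3 counts cover counting error only. Ratios and correlations were computed with Python 3.11.15, and figures were drawn with matplotlib 3.10.9. Promoter sequences are from RefSeq (GRCm38.p6), where all 10 genes were matched by symbol.

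The genes and lists were chosen with earlier results of these data known, and give no independent support to a direction. Besides all 10 genes, Tyrobp, Trem2, B2m, Csf1r and Spi1 were named whatever their values. From each pathway list, at most 3 genes were named, those with the smallest adjusted p past both thresholds. P2ry12, Sall1, Siglech, Aif1, Mrc1, Cd163, Fyn, Zap70, Plcg1, Vav1, Vav2, Vav3, Pik3cb, Pik3r1, Prkcb and Inppl1 were named after their values were seen. Clec7a and the immunoglobulin heavy chain genes of the lists were not analysed here. One list of cell type markers is not reported here.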

Additional observations from a re-analysis of the deposited data

Results flagged for a closer look

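The change in G93a mice exceeded the change with age by a test of the difference (edgeR interaction, adjusted p under 0.05) for 9 genes. On the log2 scale the difference was 1.65 for Fcer1g, 1.38 for Fcgr1, 1.99 for Fcgr2b, 1.49 for Fcgr3, 3.27 for Fcgr4, 1.4 for Syk, 0.83 for Plcg2, 1.86 for Btk and 1.10 for Inpp5d.

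Single libraries stood apart from their group in 6 of the 56 sets of young or old libraries examined, where chance alone marks about 1 set in 20. Old F was far below the other old libraries for Plcg2 (6.79 CPM), Tyrobp (17.4 CPM) and Trem2 (22.5 CPM). Young F was above the other young libraries for B2m (118.7 CPM). Of the log2 ratios to Csf1r, Young D was high for Plcg2 (-3.39) and Old A was low for Btk (-6.60).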

How the results depend on the processing

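The number of genes higher with age was 7 and changed most with limma on log2(FPKM + 1), to 3, and with glmTreat against a log2 fold change of 1, to 3. Both kept Fcer1g, Fcgr2b and Fcgr3. It was 5 to 8 under the other settings, and 6 to 8 with each library left out. The number higher in G93a mice was 9 under every setting except the filter of at least 10 counts in every library, which left 7 because it removed Btk and Fcgr4. The number with the larger change in G93a mice was 9 with RLE factors and with DESeq2 and 7 to 9 with a G93a or Control library left out. The number of relations to Fcer1g with an adjusted p under 0.05 was 1 on log2 CPM and 0 on log2(FPKM + 1). No log2 fold change of the 10 genes changed direction. Over all genes, 297 were higher with age, against 475 with DESeq2, 487 with 1 DESeq2 fit of all libraries, 508 without a filter, 169 with at least 10 counts in every library, 127 with limma on log2(FPKM + 1), 119 with glmTreat and 1839 with no threshold on the fold change. In G93a mice, 1223 became 558 with glmTreat and 2641 with no threshold on the fold change. For the difference between comparisons, 1682 genes became 1075 without G93a A. Ratios from FPKM and with a library left out were added after seeing the data. No paired analysis was possible because the columns carry no replicate numbers. Depth limits Fcgr4 in the aging libraries and in controls, and Btk rests on 3 to 30 counts in the aging libraries.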
